A study of Mus musculus with 48 samples.

Results

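Transcripts of the red blood cell lineage were followed through splenic monocytes, pre-red pulp macrophages (pre-RPMs) and red pulp macrophages (RPMs) of mice. The members were chosen by name: 9 genes were listed, 8 of them are described here as rows of the 54735-gene count tables, and 1 is not analysed here. The 8 are the adult beta-globin genes Hbb-bs and Hbb-bt, the adult alpha-globin genes Hba-a1 and Hba-a2, the membrane genes Slc4a1 and Epb42, and the transcription factor genes Klf1 and Gata1. The rule goes by name and sets no threshold on a measured value, the list was drawn up with earlier results of these data known, and all 24 RNA-seq libraries of the study were used.

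Erythroid cells fill with hemoglobin, a tetramer of alpha- and beta-globin chains that carries oxygen. Slc4a1 encodes band 3, the anion exchanger that anchors the red cell skeleton to the membrane, and Epb42 encodes protein 4.2, which binds band 3. Gata1 and Klf1 encode the zinc finger factors that switch on globin and membrane genes during erythroid maturation, and both are made by the precursors of red cells. RPMs are the macrophages of the spleen that engulf old red cells and recycle their iron. Reticulocytes, the youngest red cells, still carry globin RNA, while mature red cells carry little RNA.

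Cells were sorted from the spleens of male Balb/c mice at 10 weeks of age, 4 wild-type (WT) mice and 4 mice labelled Il1rl1-/-, a genotype without the gene of the receptor for the cytokine IL-33. Each mouse gave 1 library per cell type: monocytes (Ly6Glo CD11bhi F4/80-), pre-RPMs (Ly6Glo CD11bhi F4/80lo) and RPMs (Ly6Glo CD11blo/- F4/80hi). The sort gates as the labels give them name no marker of red cells. RNA-seq of 3 cell types in 2 genotypes asks how transcription changes as monocytes become RPMs, and whether loss of the receptor alters those steps.

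The 24 libraries held between 3562367 and 6559454 reads assigned to genes, so that 1 to 3 reads of a gene could not be told apart from 0 and 3 reads stood for 0.449 to 0.892 CPM, the read count scaled to a common library size with TMM factors. The gates were borne out by 12 RPM marker genes, whose summed level ran from 160.6 to 362.3 CPM in WT pre-RPMs and from 6807 to 8695 CPM in WT RPMs. The deleted gene, Il1rl1, did not follow the genotype labels: it had 12 to 28 reads in WT monocytes against 51 to 73 in monocytes labelled Il1rl1-/-, 13 to 24 against 42 to 76 in pre-RPMs, and 5 to 13 against 1 to 7 in RPMs. The labels do not give which exons were removed, and every genotype comparison below is between libraries as labelled.

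The 8 genes lie on 5 chromosomes of the mouse build GRCm38. Hbb-bs (chr7:103826534-103828096, minus strand) and Hbb-bt (chr7:103812524-103813996, minus strand) are neighbours, as are Hba-a1 (chr11:32283511-32284465, plus strand) and Hba-a2 (chr11:32296489-32297298, plus strand). Slc4a1 lies at chr11:102348824-102366203 (minus strand), Epb42 at chr2:121017891-121037072 (minus strand), Klf1 at chr8:84901928-84905291 (plus strand) and Gata1 at chrX:7959260-7978071 (minus strand). The 250 bases upstream of the RefSeq transcription start (build GRCm38.p6) are shown for a beta-globin, an alpha-globin and the 2 regulators, because the globins moved together in these libraries while Klf1 and Gata1 each moved differently. The windows are chr7:103827929-103828178 (minus strand), chr11:32283422-32283671 (plus strand), chr8:84901732-84901981 (plus strand) and chrX:7967911-7968160 (minus strand), and the Ensembl gene model used for counting starts further upstream at all 4. Capitals mark matches on either strand to 4 motifs: CCNCNCCC, the box that KLF factors bind; the motif of GATA factors, counted as AGATAA, in a variant form as AGATAG, with another first base as TGATAA, and in its variant form as TGATAG; the CCAAT box; and the TATA box, counted as TATAAA and in its shifted form as ATATAA.
Hbb-bs: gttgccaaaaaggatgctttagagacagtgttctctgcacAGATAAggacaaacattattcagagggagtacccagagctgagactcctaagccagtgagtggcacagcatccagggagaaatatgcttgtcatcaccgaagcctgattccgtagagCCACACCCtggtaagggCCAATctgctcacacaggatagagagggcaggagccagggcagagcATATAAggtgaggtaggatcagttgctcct
Hba-a1: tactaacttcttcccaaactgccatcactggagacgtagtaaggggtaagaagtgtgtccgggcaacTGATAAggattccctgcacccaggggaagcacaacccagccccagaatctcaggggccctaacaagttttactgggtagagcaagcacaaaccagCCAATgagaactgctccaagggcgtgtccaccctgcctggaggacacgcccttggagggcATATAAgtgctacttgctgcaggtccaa
Klf1: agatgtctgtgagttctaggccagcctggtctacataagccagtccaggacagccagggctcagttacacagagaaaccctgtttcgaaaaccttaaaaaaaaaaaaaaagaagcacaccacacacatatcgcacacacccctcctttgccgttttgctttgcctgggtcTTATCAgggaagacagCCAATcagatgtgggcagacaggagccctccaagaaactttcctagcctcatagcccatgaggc
Gata1: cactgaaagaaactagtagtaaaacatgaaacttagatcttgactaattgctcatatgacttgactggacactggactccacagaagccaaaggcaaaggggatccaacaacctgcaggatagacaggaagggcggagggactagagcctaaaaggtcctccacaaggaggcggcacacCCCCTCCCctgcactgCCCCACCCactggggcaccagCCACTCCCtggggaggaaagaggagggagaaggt

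In the Hbb-bs window the KLF box began 93 bases, the CCAAT box 76 bases and the TATA box 30 bases upstream of the start. The Hba-a1 window held a GATA motif, a CCAAT box and a TATA box, and the Hba-a2 window was identical to it over 247 consecutive bases. In the Hbb-bs and Hbb-bt windows the longest identical stretch was 14 bases. The Klf1 window held 1 GATA motif, and the Gata1 window held 3 KLF boxes and no GATA motif. Of the 7 members with a RefSeq window, 3 held a KLF box, 5 a GATA motif, 5 a CCAAT box and 5 a TATA box. Among 32851 RefSeq windows of the same length those shares were 45.9%, 26.5%, 33.8% and 16.7%. These are matches of letters and not measured binding sites.

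Per kilobase of exon Hbb-bs was the most abundant of the 8 genes in every RPM library. In WT monocytes it stood at 1.53, 3.00, 13.3 and 4.19 CPM in mice 1 to 4. In WT pre-RPMs it stood at 5.35, 3.67, 269.5 and 51.4 CPM in the same mice. In WT RPMs it reached 1053, 649, 14508 and 5954 CPM. Each RPM library lay above every pre-RPM and monocyte library, and mouse 3 was the highest WT mouse in all 3 cell types. From pre-RPMs to RPMs Hbb-bs rose 65.7-fold (log2 fold change 6.04, SE 1.32, edgeR quasi-likelihood test, adjusted p = 0.00156). In RNA from sorted populations, more erythroid cells and more erythroid RNA per cell cannot be told apart, and the source of this RNA was not tested.

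The same rise was found in the mice labelled Il1rl1-/-. Their monocytes held 2.46, 2.52, 3.66 and 4.53 CPM of Hbb-bs, and their pre-RPMs held 3.31, 3.90, 7.14 and 17.0 CPM. Their RPMs held 1559, 463, 5929 and 9449 CPM. RPMs again did not overlap the other cell types, and here mouse 4 was highest in all 3. The log2 fold change from pre-RPMs to RPMs was 9.04 (SE 0.92, edgeR, adjusted p = 6.49e-07).

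Hbb-bt, the other adult beta-globin gene, followed at a lower level. It stood at 80.9, 66.0, 1049 and 410.3 CPM in WT RPMs and at 104.0, 32.0, 492.4 and 665.8 CPM in RPMs labelled Il1rl1-/-. Outside RPMs it had at most 14 reads in a library, with the exception of WT pre-RPM mouse 3, which had 91 reads and 22.3 CPM. Hbb-bt rose from pre-RPMs to RPMs by a log2 fold change of 5.84 in WT mice (SE 1.03, edgeR, adjusted p = 0.000273). The value in mice labelled Il1rl1-/- was 8.39 (SE 1.02, edgeR, adjusted p = 4.34e-06). There only RPM libraries held enough reads for Hbb-bt to be tested, and in WT mice only 2 pre-RPM libraries did beside them. Both p-values are therefore a description.

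Both alpha-globin genes rose with the beta-globins. Hba-a1 stood at 1.16, 1.31, 65.4 and 12.4 CPM in WT pre-RPMs and at 244.0, 146.0, 3737 and 1372 CPM in WT RPMs. Hba-a2 stood at 1.63, 1.05, 179.8 and 9.75 CPM in WT pre-RPMs and at 340.0, 209.9, 2210 and 1148 CPM in WT RPMs. For both genes every WT RPM library exceeded every WT pre-RPM library, though for Hba-a2 the pre-RPM library of mouse 3 lay close below the lowest of them. The log2 fold change was 6.06 for Hba-a1 (SE 1.22, edgeR, adjusted p = 0.000842) and 4.31 for Hba-a2 (SE 1.20, adjusted p = 0.00794). For each gene only 2 WT pre-RPM libraries held enough reads, so both were tested through their RPM libraries and these p-values are a description. The Hba-a2 call was lost in 5 of 8 fits that left out 1 WT library (log2 fold change from 3.51 without RPM mouse 3 upward, adjusted p from 0.0144 to 0.0279) and with DESeq2 (4.30, adjusted p = 0.0101).

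In RPMs labelled Il1rl1-/- Hba-a1 stood at 374.4, 104.5, 1406 and 2137 CPM and Hba-a2 at 363.0, 139.4, 2147 and 1451 CPM. Mouse 2 was lowest for both, and its Hba-a2 level lay below that of WT pre-RPM mouse 3, while Hba-a1 was highest in mouse 4 and Hba-a2 in mouse 3. From pre-RPMs to RPMs the log2 fold change was 8.67 for Hba-a1 (SE 0.93, edgeR, adjusted p = 1.22e-06) and 8.12 for Hba-a2 (SE 0.84, adjusted p = 7.46e-07).

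The 2 genes of each globin pair share much of their sequence, and how reads were divided within a pair is uncertain. Of the 50-base words in the exons of Hba-a2, 87.3% also occurred in Hba-a1, and 50.9% of those of Hbb-bt occurred in Hbb-bs. As counted, Hba-a1 made up 39.6% to 62.8% of alpha-globin reads across the 8 RPM libraries. Hbb-bt made up 6.26% to 9.22% of beta-globin reads, a narrower range. Summed over each pair, alpha-globin reads were 0.355 to 0.553 times beta-globin reads in the same libraries. Together the 4 adult globins took 0.0848% to 1.75% of all assigned reads in RPM libraries.

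**Figure D1:**
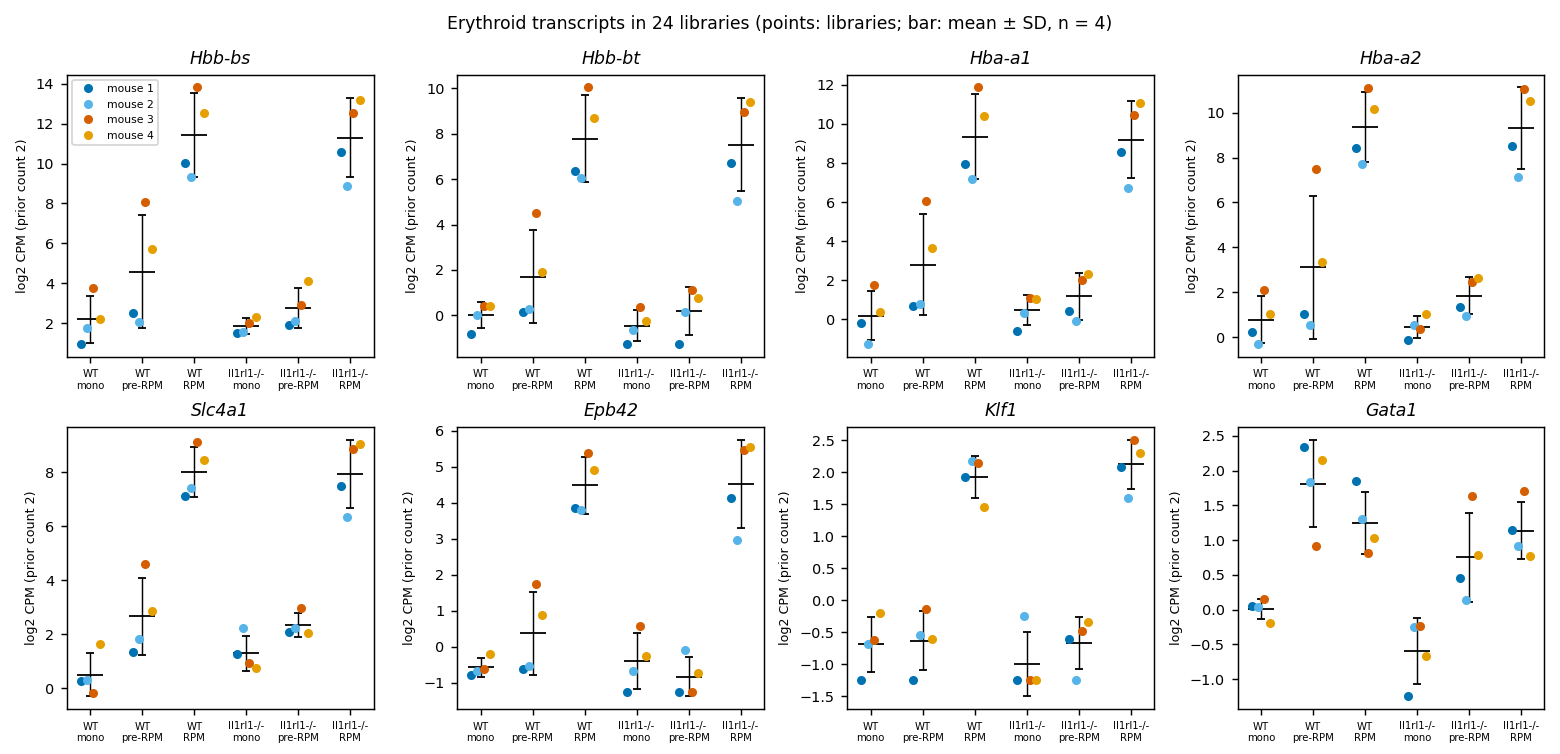
Levels of the 8 erythroid transcripts in 24 libraries, 1 panel per gene, as log2 CPM with a prior count of 2 (y axis) by cell type and genotype label (x axis); points are libraries coloured by mouse number and bars are mean ± SD (n = 4). Hbb-bs, Hbb-bt, Hba-a1, Slc4a1, Epb42 and Klf1 lie higher in all 8 RPM libraries than in the other 16, Hba-a2 does so apart from WT pre-RPM mouse 3 at 179.8 CPM against 139.4 CPM in the lowest RPM library, and Gata1 lies lowest in monocytes and overlaps between pre-RPMs and RPMs.

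The band 3 gene Slc4a1 rose in the same step with a smaller spread. It stood at 2.09, 3.15, 23.5 and 6.90 CPM in WT pre-RPMs and at 138.1, 168.8, 550.5 and 351.0 CPM in WT RPMs. In mice labelled Il1rl1-/- it stood at 3.78, 4.24, 7.44 and 3.73 CPM in pre-RPMs and at 178.9, 80.8, 463.0 and 530.2 CPM in RPMs. All RPM libraries lay above all pre-RPM libraries, and WT pre-RPM mouse 3 was again the highest of its group. The log2 fold change was 5.04 in WT mice (SE 0.62, edgeR, adjusted p = 9.14e-06) and 6.02 in mice labelled Il1rl1-/- (SE 0.56, adjusted p = 2.15e-07).

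Epb42, the partner of band 3, was close to the floor outside RPMs. It had 1, 1, 12 and 6 reads in WT pre-RPMs (0.233, 0.262, 2.94 and 1.43 CPM) and at most 5 reads in any monocyte library. In WT RPMs it stood at 14.0, 13.4, 41.4 and 29.6 CPM, and in RPMs labelled Il1rl1-/- at 17.3, 7.36, 43.8 and 46.2 CPM. Every RPM library was above every other library. The WT log2 fold change from pre-RPMs to RPMs was 4.24 (SE 0.55, edgeR, adjusted p = 1.53e-05). Only 1 WT pre-RPM library held enough reads, so Epb42 was tested through its RPM libraries and this p is a description. Pre-RPMs labelled Il1rl1-/- had at most 3 reads in each library, which makes Epb42 at least 43.0-fold higher in their RPMs against a floor of 3 reads per library. There only RPM libraries held enough reads for Epb42 to be tested, so the p of its fitted change (edgeR, adjusted p = 5.45e-06) is a description.

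Of the regulators, Klf1 was read above the floor in RPMs alone. It had 16, 20, 15 and 10 reads in WT RPMs (3.39, 4.07, 4.01 and 2.31 CPM) and 17, 16, 24 and 21 reads in RPMs labelled Il1rl1-/- (3.81, 2.62, 5.26 and 4.47 CPM). None of the 16 monocyte and pre-RPM libraries had more than 3 reads. Klf1 was at least 4.70-fold higher in WT RPMs than in WT pre-RPMs and at least 6.05-fold higher in the mice labelled Il1rl1-/-, against the floor of 3 reads per library. In both genotypes only RPM libraries held enough reads for Klf1 to be tested. The p-values of its fitted changes (edgeR, adjusted p = 3.27e-05 and 7.56e-06) are therefore a description.

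Gata1 did not follow the globins. It had 3 or 4 reads in each WT monocyte library and 0 to 2 in each monocyte library labelled Il1rl1-/-. In WT pre-RPMs it stood at 4.65, 3.15, 1.47 and 4.04 CPM, and in WT RPMs at 3.18, 2.04, 1.34 and 1.62 CPM. The WT pre-RPM library with the highest globin level, mouse 3, had the lowest Gata1 level of its group. Gata1 was lower in RPMs than in pre-RPMs in 4 of 4 WT mice, but the groups overlapped and the log2 fold change of -0.73 (SE 0.38) was not called (edgeR, adjusted p = 0.130).

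In pre-RPMs labelled Il1rl1-/- Gata1 stood at 0.945, 0.678, 2.68 and 1.30 CPM, and in their RPMs at 1.79, 1.47, 2.85 and 1.28 CPM. Too few reads kept it out of the fit for this step. An exact two-sided permutation test over libraries gave p = 0.371. Against monocytes Gata1 was higher without overlap in pre-RPMs and in RPMs of both genotypes (exact permutation p = 0.0286 in each of 4 comparisons, the smallest that 4 against 4 libraries can give; 0.0623 after adjustment over 72 tests of members). Platelets, eosinophils and mast cells also use Gata1, and their markers are given below.

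Between cell types a gene was called at an adjusted p below 0.01 and an absolute log2 fold change above 1. In the step from WT pre-RPMs to RPMs all 8 members were tested and 7 were called higher, where 24.7% of 11239 tested genes were called and 14% were called higher. The median log2 fold change of the 8 was 4.67, and that of all tested genes was -0.001. In mice labelled Il1rl1-/- 7 members were tested and 7 were called higher, where 26% of 11437 genes were called and 14.5% were called higher. The filter on low counts asks for the equivalent of 10 reads in 4 libraries, and the 4 RPM libraries met it for each of the 7 called members. Klf1 had no WT pre-RPM library at that level, and Hbb-bt, Epb42 and Klf1 had none labelled Il1rl1-/-, so that these genes could enter the fit only by differing. Epb42 had 1 WT pre-RPM library at that level, Hbb-bt, Hba-a1 and Hba-a2 had 2 each and Slc4a1 had 3. Under the label Il1rl1-/-, 5 of the 7 tested members had fewer than 4 pre-RPM libraries at that level. These genes too met the filter only with their RPM libraries. The p-values of all these genes and the counts of members called are therefore a description, and the counts are not read against the share of all genes.

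Without WT pre-RPM mouse 3, the WT step was larger for the 4 globins, Slc4a1 and Epb42: the log2 fold change became 8.05 for Hbb-bs, 7.88 for Hbb-bt, 8.05 for Hba-a1, 7.81 for Hba-a2, 6.16 for Slc4a1 and 5.11 for Epb42. With mouse as a block, which compares the cell types within each mouse, the standard error of Hbb-bs fell from 1.32 to 0.27 around a log2 fold change of 6.69. The within-mouse differences of Hbb-bs lay between 5.75 and 7.51 on the log2 scale in the 4 WT mice, although its level in RPMs differed 22.3-fold among them.

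**Figure D2:**
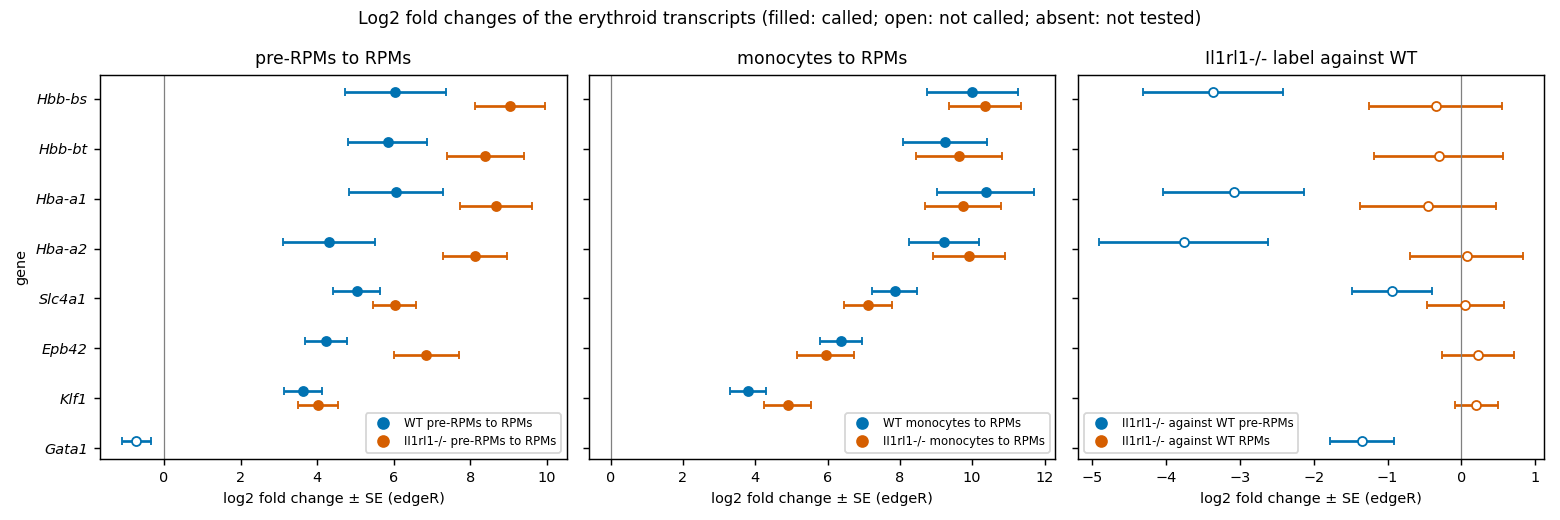
Log2 fold changes ± SE (x axis, edgeR) of the 8 erythroid transcripts (y axis) from pre-RPMs to RPMs, from monocytes to RPMs, and between libraries labelled Il1rl1-/- and WT; filled points passed the threshold, open points did not, and a missing point was not tested. The 4 globins, Slc4a1, Epb42 and Klf1 are filled and right of 0 in both cell type panels, and no point is filled in the genotype panel.

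From monocytes to RPMs the differences were larger still. In WT mice the log2 fold change was 10.01 for Hbb-bs, 9.25 for Hbb-bt, 10.37 for Hba-a1, 9.22 for Hba-a2 and 7.85 for Slc4a1. Epb42 and Klf1 had at most 3 reads in each WT monocyte library and were at least 44.8-fold and at least 6.27-fold higher in RPMs. All 7 tested members were called, where 23.9% of genes were called and 13.4% were called higher. Of the 7, Hbb-bt, Epb42 and Klf1 had no WT monocyte library at the level of the filter and were tested through their RPM libraries alone. In mice labelled Il1rl1-/- the log2 fold change was 10.35 for Hbb-bs, 9.63 for Hbb-bt, 9.75 for Hba-a1, 9.92 for Hba-a2, 7.12 for Slc4a1 and 5.95 for Epb42, and Klf1 was at least 6.14-fold higher. Again 7 of 7 tested members were called, where 25.9% of genes were called and 14.3% were called higher. In these mice 5 of the 7, Hbb-bt, Hba-a1, Hba-a2, Epb42 and Klf1, had no monocyte library at the level of the filter, so that this count too is a description. Both sets of comparisons share their RPM libraries.

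From monocytes to pre-RPMs no member passed the threshold in either genotype. Only Hbb-bs and Slc4a1 held enough reads to be tested. In WT mice the log2 fold change was 3.98 for Hbb-bs (SE 1.18, edgeR, adjusted p = 0.0441) and 2.80 for Slc4a1 (SE 0.77, adjusted p = 0.0344), where 3.57% of genes were called. With mouse as a block Hbb-bs was called (3.23, SE 0.51, adjusted p = 0.00378) and Slc4a1 was not (2.48, adjusted p = 0.0206). Without WT pre-RPM mouse 3 the values were 1.96 for Hbb-bs (adjusted p = 0.178) and 1.68 for Slc4a1 (adjusted p = 0.0977). In that fit Gata1 held enough reads to be tested and was called higher in pre-RPMs (2.73, edgeR, adjusted p = 0.00343), as it was without WT monocyte mouse 3 (2.56, adjusted p = 0.00286). No WT monocyte library reached the level of the filter for Gata1, which was tested through pre-RPM libraries alone, so these p-values are a description. In mice labelled Il1rl1-/- the log2 fold changes were 1.26 for Hbb-bs (SE 0.49, edgeR, adjusted p = 0.101) and 1.06 for Slc4a1 (adjusted p = 0.0855), where 4.85% of genes were called. DESeq2 called neither gene in either genotype, and all 4 of these tests had an unadjusted p under 0.05, as did 3540 of 11091 genes in WT mice and 3425 of 11196 in mice labelled Il1rl1-/-. Hbb-bs was higher in pre-RPMs than in monocytes in 4 of 4 mice of each genotype.

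Levels of different genes were compared per kilobase of exon. In WT RPMs the order of mean levels was Hbb-bs at 7215 CPM per kilobase, Hba-a1 at 1693, Hba-a2 at 1465, Hbb-bt at 571.1, Slc4a1 at 61.8, Epb42 at 4.54, Klf1 at 2.25 and Gata1 at 0.837. In RPMs labelled Il1rl1-/- Hba-a2 (1537 CPM per kilobase) stood above Hba-a1 (1238), and the order of the others was the same. The order of the 2 alpha-globins differed between libraries. Hba-a1 and Hba-a2 stood at 300.5 and 509.7, 179.8 and 314.8, 4602 and 3313, and 1689 and 1721 CPM per kilobase in WT RPM mice 1 to 4. Under the label Il1rl1-/- Hba-a2 was the higher in RPM mice 1 to 3 and Hba-a1 in mouse 4. The SD between WT RPM libraries was 2057 CPM per kilobase for Hba-a1 and 1380 for Hba-a2. Averaged over 8 RPM libraries, Hbb-bs stood 102.4 times above Slc4a1, 2633 times above Klf1 and 8072 times above Gata1 per kilobase.

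RPM libraries differed widely in these transcripts. For Hbb-bs the highest exceeded the lowest 22.3-fold among the 4 WT libraries and 20.4-fold among the 4 labelled Il1rl1-/-. Over all 8 RPM libraries of both genotypes the highest exceeded the lowest 31.4-fold for Hbb-bs, 32.7-fold for Hbb-bt, 35.8-fold for Hba-a1 and 15.8-fold for Hba-a2. The spread was 6.82-fold for Slc4a1 and 6.28-fold for Epb42, and only 2.28-fold for Klf1 and 2.49-fold for Gata1. RPM mouse 2 labelled Il1rl1-/- was lowest for the 4 globins, Slc4a1 and Epb42. WT RPM mouse 3 was highest for the 4 globins and Slc4a1. The Hbb-bs levels fell into separate sets: 4 libraries, mice 1 and 2 of each genotype, held at most 1559 CPM and the other 4, mice 3 and 4 of each genotype, at least 5929 CPM. The labels give no date or batch for mice 1 and 2 against mice 3 and 4, and no correlation among members was computed over the 8 RPM libraries alone.

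Within the 4 WT RPM libraries the median member spanned 7.26-fold from lowest to highest, where the median of 12282 genes spanned 1.46-fold. In the 4 libraries labelled Il1rl1-/- the median member spanned 10.98-fold, where the median of 12050 genes spanned 1.45-fold. The 12 RPM markers spanned a median of 1.35-fold and 1.17-fold in the same libraries. The summed RPM markers of single libraries lay between 6807 and 9441 CPM over all 8, while the summed adult globins averaged 8294 ± 9491 CPM in WT RPMs and 6704 ± 6159 CPM in RPMs labelled Il1rl1-/- (SD, n = 4).

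**Figure D3:**
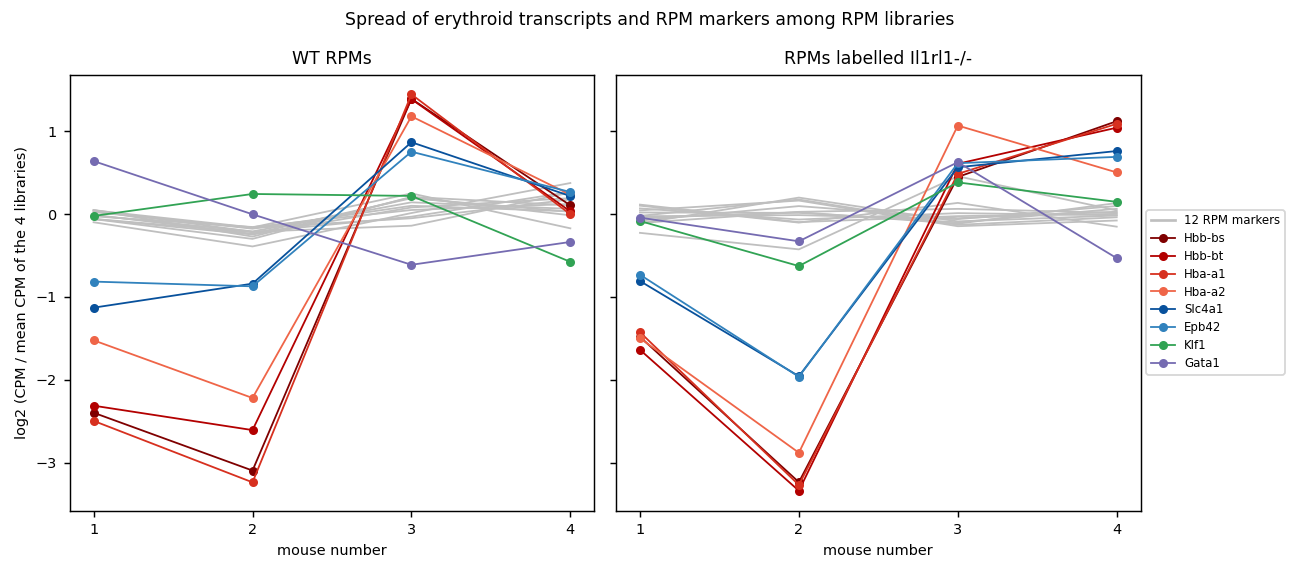
Level of each erythroid transcript (coloured lines) and of 12 RPM markers (grey lines) in the 4 RPM libraries of each genotype (x axis, mouse number), as log2 of CPM over the mean of the 4 libraries (y axis). The 4 globins fall low in mice 1 and 2 and lie high in mice 3 and 4 of both genotypes, spanning up to 25.6-fold in WT RPMs, while the grey lines stay close to 0.

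In the main fits, which used no mouse block, the label Il1rl1-/- went with no called difference in these transcripts. Between genotypes and for differences of a change, a gene was called at an adjusted p below 0.05. In RPMs the log2 fold change of libraries labelled Il1rl1-/- against WT was -0.35 for Hbb-bs (SE 0.90), -0.31 for Hbb-bt (SE 0.88), -0.45 for Hba-a1 (SE 0.92) and 0.07 for Hba-a2 (SE 0.77). It was 0.05 for Slc4a1 (SE 0.52), 0.22 for Epb42 (SE 0.49) and 0.20 for Klf1 (SE 0.30). None of these 7 was called with edgeR (adjusted p from 0.948 to 0.995) or DESeq2, where 0.233% of genes were called. An unadjusted p under 0.05 was given to 0 of the 7 and to 811 of 11150 genes. The genotypes overlapped for every member.

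In pre-RPMs the globin means were lower under the label Il1rl1-/-, by an amount that rested on 1 library, and no difference was called. The log2 fold change was -3.36 for Hbb-bs (SE 0.94, edgeR, adjusted p = 0.180), -3.08 for Hba-a1 (SE 0.96, adjusted p = 0.265) and -3.76 for Hba-a2 (SE 1.14, adjusted p = 0.245). Without WT pre-RPM mouse 3 the values were -1.35 for Hbb-bs, -1.08 for Hba-a1 and -0.24 for Hba-a2, and that of Slc4a1 went from -0.94 to 0.19. Gata1 averaged 3.33 CPM in WT pre-RPMs and 1.401 CPM in those labelled Il1rl1-/- (log2 fold change -1.35, SE 0.44, adjusted p = 0.305), with overlap between the groups. None of the 5 members tested was called with edgeR or DESeq2 although 4 had an unadjusted p under 0.05, where 0.552% of genes were called and 941 of 10698 had such a p.

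In monocytes Hbb-bs alone was tested and was not called (log2 fold change -0.68, edgeR, adjusted p = 0.997), where 0.0614% of 11405 genes were called and 410 had an unadjusted p under 0.05. The change from pre-RPMs to RPMs was larger under the label Il1rl1-/- by 3.02 for Hbb-bs, 2.62 for Hba-a1 and 3.82 for Hba-a2 on the log2 scale, and none of 8 members tested was called for that difference with edgeR or DESeq2, where 0.107% of genes were called. Of the 8, Hba-a2 had an unadjusted p under 0.05, as did 914 of 12150 genes. With mouse as a block, which compares the cell types within each mouse, the difference for Hba-a1 was called (2.21, edgeR, adjusted p = 0.00459). Without WT pre-RPM mouse 3 and without a block the difference for Hba-a1 was 0.63 (edgeR, adjusted p = 0.976). For the change from monocytes to RPMs none of 7 was called with either tool or had an unadjusted p under 0.05, where 0.0318% of genes were called and 609 of 12592 had such a p.

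WT pre-RPM mouse 3 stood apart in other genes as well. Its Hbb-bs level was 4.86% of the mean of WT RPMs, against 0.0663% to 0.927% in the other 3 WT pre-RPM libraries. For Hbb-bt the share was 5.55%, for Hba-a1 4.76%, for Hba-a2 18.4% and for Slc4a1 7.78%. Among RPM markers the shares in that library were 2.60% for Vcam1, 1.71% for Slc40a1, 4.18% for Cd163, 3.26% for C6 and 3.78% for Cd5l. In the other WT pre-RPM libraries they were at most 0.561%, 1.18%, 0.968%, 0.500% and 1.22%. In all, 10 of 12 RPM markers were highest in mouse 3, and the share of all genes highest there was not computed. Spic was highest in mouse 4 (5.28% against 4.55% in mouse 3) and Adgre1 in mouse 1 (32.0% against 25.7%). Treml4 stood at 21.1% in mouse 3 and 16.0% to 18.8% in the others. Summed over the 12, RPM markers reached 362.3 CPM in mouse 3 and 160.6 CPM in the lowest WT pre-RPM library. The part of RPMs in the globin level of WT pre-RPM mouse 3 was not tested.

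Markers of other blood cells were also read in the RPM libraries. The 10 platelet and megakaryocyte markers summed to 3.21 to 5.09 CPM in WT RPMs and 2.98 to 4.93 CPM in RPMs labelled Il1rl1-/-, with Gp1bb at 0 in all 8, and to 4.42 to 7.37 CPM in WT pre-RPMs. Itga2b, a platelet integrin, averaged 2.30 ± 0.87 CPM in WT RPMs, Ppbp 0.62 CPM and Pf4 0.30 CPM. The 9 eosinophil markers summed to 15.8 to 40.8 CPM in monocytes, 56.8 to 110.7 CPM in pre-RPMs and 293.0 to 426.8 CPM in RPMs of WT mice, and to 15.5 to 39.3, 61.7 to 96.4 and 327.5 to 407.7 CPM in mice labelled Il1rl1-/-. The step into RPMs was that of the chemokine receptor gene Ccr3, which rose from 36.3 to 310.5 CPM in WT mice on average, while Ear2 stood at 19.4 and 22.4 CPM and Prg2 at 11.02 and 5.78 CPM and neither was called. Among genes named after their values were seen, Ear6 averaged 4.45 CPM in WT pre-RPMs and 0.25 CPM in WT RPMs, Il5ra 5.18 and 0.37 CPM, Ear1 1.27 and 0.10 CPM, and Siglecf 5.17 and 1.00 CPM. Of the eosinophil markers tested from pre-RPMs to RPMs 1 of 3 was called higher and 0 lower in WT mice, with a median log2 fold change of 0.15. In mice labelled Il1rl1-/- 1 of 4, Ccr3, was called higher and 1, Siglecf, lower, with a median of -0.62. Of all tested genes 14% were called higher and 10.7% lower in WT mice, and 14.5% and 11.5% in mice labelled Il1rl1-/-. In WT pre-RPMs 6 of the 9 were highest in mouse 1, the library with the highest Gata1 level. Gata1 had 20 reads there and 17 in mouse 4, and the share of all genes highest in mouse 1 was not computed. The 9 mast cell and basophil markers summed to 35.3 to 109.3 CPM in WT monocytes, 12.3 to 38.2 CPM in WT pre-RPMs and 3.74 to 13.8 CPM in WT RPMs, there with Kit at 3.81 CPM, Cpa3 at 1.58 CPM and Cma1 at 0.916 CPM on average. B cell markers summed to 35.2 to 52.2 CPM in WT pre-RPMs and 25.9 to 80.4 CPM in WT RPMs. T cell markers summed to 44.5 to 123.7 CPM in WT monocytes, 12.7 to 22.3 CPM in WT pre-RPMs and 18.2 to 70.0 CPM in WT RPMs. From WT pre-RPMs to RPMs 2 of 3 tested T cell markers were called higher (median log2 fold change 1.81) and 0 of 5 B cell markers. In mice labelled Il1rl1-/- 0 of 3 and 0 of 5 were. The part of these cells in the levels of Gata1 and Klf1 was not tested.

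Other red cell genes were read from lists chosen by function. Of 18 genes of the red cell membrane and skeleton, 16 were tested from WT pre-RPMs to RPMs. Of these, 14 were called higher and none lower, where 14% of all tested genes were called higher and 10.7% lower. Epb41, the gene of protein 4.1, went from 66.0 ± 18.5 to 574.2 ± 532.0 CPM (log2 fold change 3.08, SE 0.54, edgeR, adjusted p = 0.000269). Sptb, a spectrin gene, rose from 6.44 to 135.5 CPM. The median of the 16 was 3.99 on the log2 scale, or 3.44 with the 2 genes under the floor in pre-RPMs set to their bound. In mice labelled Il1rl1-/- 13 of 15 tested were called higher, where 14.5% of all tested genes were. Of the tested genes 9 in WT mice and 7 in mice labelled Il1rl1-/- had no pre-RPM library at the level of the filter on low counts, so these counts and medians are a description.

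Of 18 genes of late erythroid cells and reticulocytes, 14 of 16 tested were called higher in WT mice and 15 of 16 in mice labelled Il1rl1-/-. Of all tested genes 14% and 14.5% were called higher. Of the listed genes tested, 1 in WT mice and 3 in mice labelled Il1rl1-/- had no pre-RPM library at the level of the filter. Bpgm, the enzyme that makes the hemoglobin effector bisphosphoglycerate, rose from 12.5 to 351.2 CPM in WT mice (log2 fold change 4.77, SE 0.89, edgeR, adjusted p = 0.000449). Tent5c rose from 14.3 to 384.8 CPM and Mkrn1 from 80.9 to 402.8 CPM. Of the 18, 17 were highest in mouse 3 among WT RPM libraries, and 15 were highest in mouse 4 among those labelled Il1rl1-/-, the mice with the highest Hbb-bs. Of all genes, 28.1% and 25.3% were highest in those libraries.

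The list of 13 erythroid regulators and receptors was divided. From WT pre-RPMs to RPMs 4 of 12 tested genes were called higher, 3 were called lower and 5 were not called, with a median log2 fold change of 0.22. Of all tested genes 14% were called higher and 10.7% lower. The 3 most abundant of the listed regulators were not called: E2f2 at 1.03 (SE 0.45), Ldb1 at -0.01 (SE 0.13), and Lmo2 at -0.73 (SE 0.11, below the fold threshold). Among genes named after their values were seen, the erythropoietin receptor gene Epor rose by 2.22, Hemgn by 5.29, Tal1 by 1.59 and the GATA1 cofactor gene Zfpm1 by 1.22 on the log2 scale. Gata2, which precedes Gata1 in progenitors, fell by 3.01, Nfe2 by 2.81 and the fetal globin repressor gene Bcl11a by 2.00. In mice labelled Il1rl1-/- 4 of 11 tested were called higher and 2 lower, where 14.5% of all tested genes were called higher and 11.5% lower. Of the listed genes tested, 1 in WT mice, Hemgn, and 2 in mice labelled Il1rl1-/- had no pre-RPM library at the level of the filter. Tal1 had 1 such library in WT mice. The counts and the fitted rises of Hemgn and Tal1 are therefore a description.

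The embryonic globins were at or near 0. Hbb-y, Hbb-bh0, Hbb-bh1 and Hba-x had no read in any WT RPM library, where 0 reads allow up to 0.611 to 0.801 CPM. The theta-like globin gene Hbq1b stood at 1.63 ± 1.18 CPM in WT RPMs and 1.68 ± 1.32 CPM in RPMs labelled Il1rl1-/-. None of 10 other globin genes held enough reads to be tested. No gene of the red cell membrane list (17 tested), the late erythroid list (18), the regulator list (11) or the RPM marker list (12) was called between genotypes in RPMs with edgeR.

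**Figure D4:**
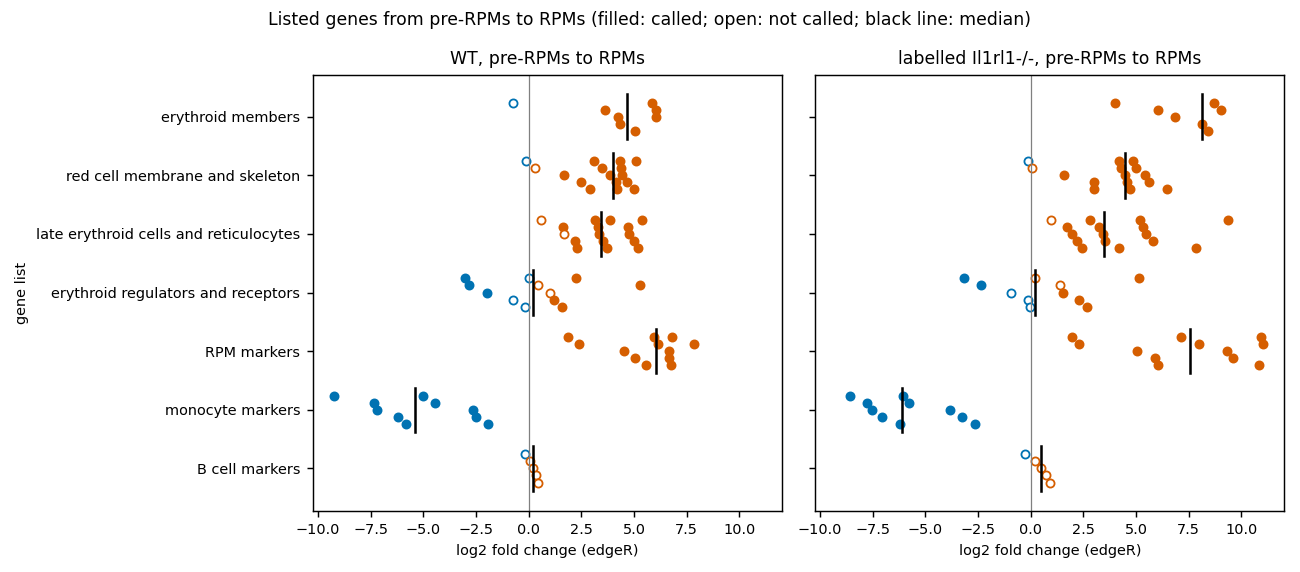
Log2 fold change from pre-RPMs to RPMs (x axis, edgeR) of each tested gene of the listed groups (y axis) in WT mice and in mice labelled Il1rl1-/-; filled points passed the threshold, open points did not, and black lines are medians. The red cell membrane list centres on 3.99 in WT mice and the late erythroid list on 3.43, between the regulators at 0.22 and the RPM markers at 6.06.

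The genes whose levels ran most like a member over all 24 libraries differed between globins and regulators. The points share libraries, depth, the division into cell types and the separate sets of RPM libraries, and the correlations describe these libraries only. Among the nearest to Hbb-bs were Hba-a1 (Pearson r = 0.995, log2 CPM), Hba-a2 (0.993) and Hbb-bt (0.991). Among those nearest to Slc4a1 were Tmcc2 (0.983), the spectrin gene Sptb (0.980), Trim10 (0.977) and Slfn14 (0.970). For Klf1 the nearest were Nagk, Il1a, Gm14221, Arhgef12 and Maf (0.965 each), none of which is on the red cell lists. For Gata1 the highest was Adam8 (0.803), followed by Camk1 (0.788), Ppp2r3d (0.772), Zfas1 (0.762) and Arap1 (0.751).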

How the data were processed

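RNA-seq was analysed in 24 libraries, 1 per mouse and cell type. The 24 chromatin accessibility samples of the series were not analysed here. The deposited values are counts of reads per gene. According to the methods and the file headers the authors made stranded libraries, trimmed paired reads of 50 bases, aligned them to the mouse genome with STAR 2.5.1 and counted them over Ensembl GRCm38.95 exons with featureCounts 1.6.2. The submitters' processing notes list cutadapt 2.8 and a human build, which the mouse gene models in the headers contradict.

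Genes with low counts were removed per comparison with filterByExpr, counts were scaled by TMM, and pairs of groups were compared with the quasi-likelihood test of edgeR 4.0.16 (R 4.3.3) with Benjamini-Hochberg adjustment over all tested genes. Standard errors were derived from the F statistic. Levels are CPM on TMM-scaled library sizes. Counts of at most 3 were treated as a floor, and floors cover counting error only. Exact permutation tests were computed with NumPy 2.4.6 over all divisions of the libraries. The scripts were tested on simulated data. DESeq2 1.42.0, other filters and scalings, a mouse block, 1 fit of all libraries and leaving out each library were tried as alternatives.

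The libraries of 1 group came from separate mice, so the spread within a group is between animals. The labels number the mouse of each library, so cell types of 1 genotype are paired by mouse. After subtraction of group means, libraries with 1 number in common correlated across genes at -0.04 to 0.31 within genotypes. Between genotypes, where a number names different mice, they correlated at 0.12 to 0.45 in monocytes and at 0.15 to 0.18 in RPMs. A block on the number gave 0 called members in these 2 cell types too. In pre-RPMs they correlated at 0.05 to 0.16 between genotypes, and the block called 3 members where the fit without it called 0. No pair of replicate libraries held identical counts.

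The members and lists were chosen with earlier results of these data known. Named besides the members were the 3 genes of each list with the highest mean level over the 8 RPM libraries, and the 5 genes most correlated with Hbb-bs, Slc4a1, Klf1 and Gata1. Some genes that this rule names are not reported here. Promoter windows are from RefSeq, and 7 members matched.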

Additional observations from a re-analysis of the deposited data

Results flagged for a closer look

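In 4 of 41 groups of 4 libraries tested, 1 library lay apart from the other 3 by Dixon's criterion. Normally distributed values meet it by chance in about 1 in 20 groups. That rate need not hold here, because unlogged CPM are skewed and the groups share libraries. Hbb-bt reached 22.3 CPM in WT pre-RPM mouse 3, where the next library held 3.33 CPM. Hba-a2 reached 179.8 CPM in the same library, where the next held 9.75 CPM. Slc4a1 stood at 2.70 CPM in the monocytes of WT mouse 4, where the next library held 0.799 CPM, and at 7.44 CPM in pre-RPM mouse 3 labelled Il1rl1-/-, where the next held 4.24 CPM. The lower pair of values rests on 18 and 25 reads.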

How the results depend on the processing

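The 7 members called from pre-RPMs or monocytes to RPMs were called in both genotypes under other scalings and in 1 fit of all libraries. Requiring at least 10 reads in every library left 1 or 2 of them to test, and 1 (WT pre-RPMs), 1 (WT monocytes), 2 (pre-RPMs labelled Il1rl1-/-) and 1 (monocytes labelled Il1rl1-/-) were called. Leaving out 1 library gave 6 to 7 called members from WT pre-RPMs to RPMs, 0 to 1 from WT monocytes to pre-RPMs (Gata1, tested in 5 of 8 such fits and called in the 2 without mouse 3 of either group) and 0 to 1 between genotypes in pre-RPMs (Hbb-bs without WT pre-RPM mouse 2, log2 fold change -3.76, adjusted p = 0.0485). One fit of all libraries called 2 members from WT monocytes to pre-RPMs, Gata1 (2.48, adjusted p = 0.000542) and Hba-a2 (4.91, adjusted p = 0.00924). It also called Gata1 from monocytes to RPMs (1.79, adjusted p = 0.00325 in WT mice, and 2.64, adjusted p = 0.000500 in mice labelled Il1rl1-/-). Gata1 had at most 4 reads in any monocyte library, under the level of the filter, so its calls against monocytes are a description. Without any filter, 6 members were called from WT monocytes to pre-RPMs, 2 from monocytes to pre-RPMs labelled Il1rl1-/-, 5 between genotypes in pre-RPMs, 1 in RPMs, and 6 for the genotype difference of the change from pre-RPMs to RPMs. In those fits the prior degrees of freedom became infinite and the quasi-dispersion of Hbb-bs between genotypes in pre-RPMs went from 35.8 to 0.782. Calls over all genes went with them, from 396 to 1094 and from 543 to 1060 for monocytes to pre-RPMs (WT and labelled Il1rl1-/-), from 7 to 139, 59 to 265 and 26 to 272 between genotypes in monocytes, pre-RPMs and RPMs, and from 13 to 224 and 4 to 165 for the differences of the change from pre-RPMs and from monocytes to RPMs. DESeq2 called 660, 22, 48, 41 and 37 genes where edgeR called 396, 7, 26, 13 and 4.

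With mouse as a replicate block 1 member, Hbb-bs, was called from WT monocytes to pre-RPMs, and 1, Hba-a1, for the genotype difference of the change from pre-RPMs to RPMs. Between genotypes in pre-RPMs, where correlations of same-numbered libraries were 0.05 to 0.16 and the number names different mice, the block called 3 members, Hbb-bs (-2.68, adjusted p = 0.00994), Hba-a1 (-2.56, adjusted p = 0.00463) and Hba-a2 (-2.87, adjusted p = 0.0215), and 145 genes in place of 59. Each of the 8 libraries there correlated best with its own number, a hint from the data and not from the design. In RPMs the block called 81 genes in place of 26 and in monocytes 27 in place of 7, with no member among them, and it turned the sign of Hba-a2 (-0.0495) and Slc4a1 (-0.0791) between genotypes in RPMs. It changed no other call of a member.

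Signs that turned when 1 library was left out belonged to differences that were not called. Between genotypes in RPMs the log2 fold change ran from -1.07 to 0.78 for Hbb-bs, -0.94 to 0.81 for Hbb-bt, -1.13 to 0.78 for Hba-a1, -0.59 to 0.86 for Hba-a2, -0.33 to 0.52 for Slc4a1 and -0.12 to 0.59 for Epb42. It ran from -1.02 to 0.19 for Hbb-bs in monocytes and from -1.28 to 0.19 for Slc4a1 in pre-RPMs. The genotype difference of the change from pre-RPMs to RPMs ran from -0.12 to 0.84 for Klf1 and -0.13 to 1.47 for Slc4a1. That of the change from monocytes to RPMs ran from -0.86 to 0.50 for Epb42, -0.26 to 1.49 for Hbb-bt, -0.53 to 1.45 for Hbb-bs and -1.62 to 0.60 for Hba-a1. The cause was not tested. Planned relations of the other members to Hbb-bs across RPM libraries were not run, because those libraries fell into 2 sets of 4. With 3562367 to 6559454 reads per library, Klf1 and Gata1 rest on at most 24 reads each, and changes in them below the floor were not detectable at this depth.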
